A study of Mus musculus with 6 samples.

Results

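The receptors for glutamate, GABA and glycine were described in the first lumbar segment of the mouse spinal cord (L1). Members were all probe sets with 1 gene symbol in the platform annotation that named a glutamate, GABA or glycine receptor subunit: 89 of 45037 probe sets, for 44 genes. Of these genes 22 encode glutamate receptors, 21 encode GABA or glycine receptors, and 1, Grid2ip, encodes a protein that binds a delta receptor and was kept out of both classes. Probe sets with a mean log2 level above the 40th percentile of all probe sets were tested: 60 of the 89, for 33 genes, of which 20 were glutamate receptor genes and 12 were GABA or glycine receptor genes. Subunits without a probe set of their own in this annotation were not analysed here.

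All mice were male, of a strain with severe combined immunodeficiency (SCID), which lacks functional T and B cells, and were 15 weeks old when the cord was taken at week 6 of the model. Mice of the N-inv (neural invasion) group had Capan-1, a line of human pancreatic cancer cells, injected into the left sciatic nerve. The SC group is labelled a subcutaneous model and the PBS group a PBS model, both as controls, and the labels say neither what the SC mice received nor where PBS was given. Each group had 2 arrays of L1 cord, and the labels name neither the side of the cord nor the animal behind each array. The p-values therefore measure the spread between arrays, which may be in part technical. Values are Affymetrix probe set intensities, scaled to a common array median of 256.2. A log2 difference is on the scale of log2(intensity + 25.6), which understates the change of dim genes.

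Glutamate is the main excitatory transmitter of the spinal cord. It opens AMPA, NMDA and kainate receptors, which are channels of Gria, Grin and Grik subunits that pass cations, and it also acts on G protein-coupled receptors, the Grm genes. GABA and glycine are the inhibitory transmitters. They open chloride channels built from Gabra, Gabrb and Gabrg subunits or from Glra and Glrb subunits, and GABA also acts on the G protein-coupled GABA-B receptor. In the cord, glycine receptors act on motor neurons and both transmitters hold back pain signals in the dorsal horn.

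No receptor gene was shown to differ between the groups in the L1 cord. No member passed the adjusted threshold of 0.05 in limma in any of the 3 comparisons, and neither did any other probe set, so the background share called was 0% in each. The count of members was also 0 under each of 16 alternative settings. In N-inv against PBS the log2 differences of the 32 tested receptor genes lay between -0.42, for Gabra2, and 0.34, for Gabrg1. The 95% interval of every one of these 32 genes lay within a 2-fold change in either direction. In N-inv against SC this held for 30 of 32 genes, the exceptions being Gabrg1 and Grm8, and in SC against PBS for 29 of 32, the exceptions being Gabra2, Grik4 and Glra1. These intervals are not adjusted for the number of genes. With each array left out in turn, 12 of 29 genes named by rule took both signs in N-inv against PBS, 16 in N-inv against SC and 18 in SC against PBS. These genes, Grid2ip among them, were in part chosen because their arrays did not overlap in a comparison. Such a gene cannot change sign there, so the counts understate how often signs turn. Leaving out 1 array also lowered the counts of genes with an interval within 2-fold. These were no less than 26 of 34 in N-inv against PBS (without PBS replicate 1), 25 of 32 in N-inv against SC (without N-inv replicate 2) and 24 of 34 in SC against PBS (without PBS replicate 1).

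At an unadjusted p under 0.05, 3 of the 60 tested member probe sets passed in N-inv against PBS, where 4.06% of all tested probe sets did. There were 4 in N-inv against SC, against a background of 8.94%, and 3 in SC against PBS, against 7.92%. The first 3 were 2 probe sets of Gabra2 and 1 of Grm7, the next 4 were the same with 1 of Grik4, and the last 3 were of Gabra2, Grik4 and Glra1, some of them named after their values were seen. In N-inv both arrays lay above both PBS arrays in 6 of the 60 and below in 11, where the background was 21.6% above and 14.6% below. Both N-inv arrays lay above both SC arrays in 17 and below in 4, with a background of 23.6% and 13.3%. Both SC arrays lay above both PBS arrays in 4 and below in 12, with a background of 14.2% and 20.2%. The shares of members above were 10%, 28.3% and 6.67% in that order, and the shares below 18.3%, 6.67% and 20%.

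**Figure D1:**
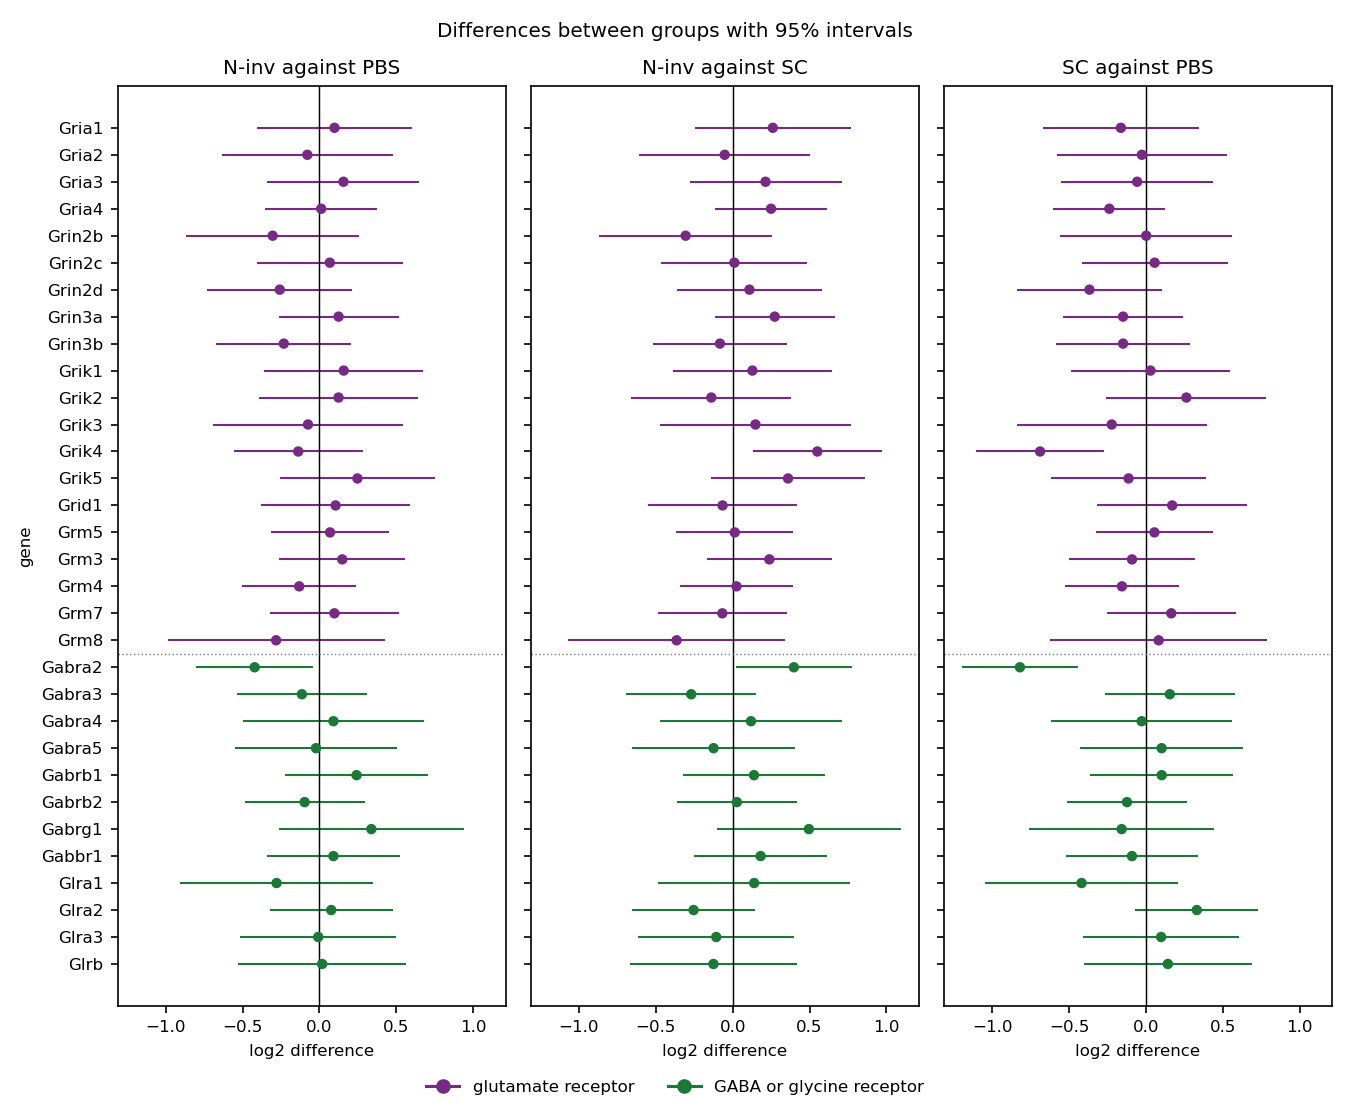
Log2 difference (x axis) of each tested receptor gene (y axis) in each of the 3 comparisons, titled above its panel, as points with 95% intervals from limma over 2 arrays per group. Glutamate receptor genes stand above the dotted line and GABA and glycine receptor genes below it. Most intervals cross 0, and those of Gabra2 and Grik4 in SC against PBS lie wholly below it.

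The arrays were not alike in quality. Across probe sets the 2 SC arrays correlated by 0.965, below each of the other 14 pairs of arrays, and the pairs within N-inv and within PBS correlated by 0.984 and 0.983. Actb control probes gave 3' over 5' ratios, which climb as RNA degrades, of 3.32 and 3.42 for N-inv and 3.81 and 4.70 for SC, against 3.05 and 3.57 for PBS. Gapdh probes gave 3.12 and 3.38 for N-inv and 3.52 and 3.38 for SC, against 2.82 and 3.02 for PBS, so both N-inv and both SC arrays lay above PBS. Xist, normally an RNA of female cells, reached 13065 in SC replicate 2 but no more than 228.5 in any of the other 5 arrays, although the labels call all mice male. The Y-linked Eif2s3y was at 3152 in that same array, the highest of the 6, and lowest, at 1344, in SC replicate 1. Replicate 2 was higher than replicate 1 in 13 of 20 glutamate and 8 of 12 GABA and glycine receptor genes in N-inv. In SC it was higher in 16 and 9, and in PBS in 16 and 11. Over all tested genes replicate 2 was higher in 51.8% in N-inv, 69.1% in SC and 62.6% in PBS. The median of replicate 2 minus replicate 1, in which opposite signs cancel, was largest in SC. It was 0.22 and 0.37 there on the log2 scale for the 2 classes, where N-inv had 0.06 and 0.08 and PBS 0.12 and 0.14. Over all tested genes it was 0.01 in N-inv, 0.18 in SC and 0.06 in PBS. The part of RNA quality or sex in the differences between groups was not tested. In whole tissue, fewer cells of a type and less RNA per cell cannot be told apart.

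The AMPA receptor genes, which carry most fast excitatory transmission, showed no difference beyond the spread of their arrays between N-inv and PBS by their brightest probe sets. Gria1 measured 3462 and 3591 in the N-inv arrays, 3522 and 2451 in the SC arrays, against 3081 and 3519 in the PBS arrays. Gria2, the subunit that limits calcium entry, measured 4795 and 5231 in the N-inv arrays, 4219 and 6394 in the SC arrays, against 4867 and 5753 in the PBS arrays. Gria3 measured 6965 and 7556 in the N-inv arrays, 5303 and 7373 in the SC arrays, against 6986 and 6063 in the PBS arrays. By the brightest probe sets of these genes the N-inv and PBS arrays overlapped, with SC replicate 2 lowest in Gria1 and highest in Gria2. Gria4 measured 3930 and 4175 in N-inv, 3296 and 3515 in SC, against 4017 and 4022 in PBS, so both SC arrays lay below the other 4. Its log2 difference was 0.25 ± 0.15 (SE) in N-inv against SC and -0.24 ± 0.15 in SC against PBS. In limma the adjusted p was 0.684 in N-inv against SC and 0.766 in SC against PBS. By the brightest probe set all 4 AMPA genes were lower in SC than in PBS, with a median of -0.11. With 1 array left out Gria1 reached 0.10, Gria2 0.27 and Gria3 0.18. Gria4 could not change sign in this way, since its SC and PBS arrays did not overlap. Other probe sets of Gria1 and Gria2 were higher in SC. Of these, a Gria2 probe set measured 2882 and 2692 in N-inv, 2928 and 3297 in SC, against 2401 and 2620 in PBS. Both its SC arrays were highest, with a log2 difference of 0.31 in SC against PBS. Both its N-inv arrays lay above both PBS arrays, with a log2 difference of 0.15.

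NMDA receptors need glutamate together with glycine or D-serine and admit calcium. Grin2b measured 550.8 and 847.8 in the N-inv arrays, 786.7 and 921.9 in the SC arrays, against 793.2 and 912.4 in the PBS arrays, with N-inv replicate 1 lowest. Grin2c measured 495.8 and 634.5 in the N-inv arrays, 491.8 and 629.8 in the SC arrays, against 528.0 and 540.7 in the PBS arrays. Grin2d, a subunit with slow closing kinetics, measured 1124 and 878.9 in the N-inv arrays, 960.3 and 881.0 in the SC arrays, against 1073 and 1328 in the PBS arrays, and both SC arrays lay below both PBS arrays. The log2 differences of these 3 genes in N-inv against PBS were -0.30, 0.07 and -0.26. With 1 array left out they ran from -0.60 to -0.005 for Grin2b, from -0.10 to 0.24 for Grin2c and from -0.43 to -0.09 for Grin2d. Grin3a, a subunit that binds glycine, measured 1353 and 1480 in the N-inv arrays, 1237 and 1100 in the SC arrays, against 1236 and 1359 in the PBS arrays, and both N-inv arrays lay above both SC arrays. Grin3b, the other subunit of that kind, measured 462.5 and 352.0 in the N-inv arrays, 408.1 and 451.2 in the SC arrays, against 477.7 and 479.6 in the PBS arrays. Grin3b was the 1 tested NMDA gene whose N-inv arrays both lay below both PBS arrays, with a log2 difference of -0.23 ± 0.18 (SE). Its SC arrays lay below PBS too. The probe set of Grin2a was below the filter, at 5.9 and 5.3 in the N-inv arrays, 83.4 and 20.9 in the SC arrays, against 29.7 and 43.5 in the PBS arrays, and was not tested.

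Among kainate receptor genes Grik4, which encodes a high-affinity auxiliary subunit, was lower in both SC arrays than in the other 4. It measured 391.5 and 359.0 in the N-inv arrays, 228.5 and 268.7 in the SC arrays, against 380.0 and 453.4 in the PBS arrays. Means were 375.2 ± 23.0 in N-inv, 248.6 ± 28.4 in SC, against 416.7 ± 51.9 in PBS (SD, n = 2 each). The log2 difference was 0.55 ± 0.18 (SE) in N-inv against SC and -0.69 ± 0.18 in SC against PBS, with unadjusted p of 0.0174 and 0.00621 and adjusted p of 0.475 and 0.507 in limma. In N-inv against PBS it was -0.14 ± 0.18. Leaving out each array in turn gave between -0.81 and -0.57 for SC against PBS, where the sign was fixed by arrays that did not overlap.

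Grik5, the other high-affinity subunit, measured 1251 and 1306 in the N-inv arrays, 817.8 and 1198 in the SC arrays, against 1098 and 1048 in the PBS arrays, so both N-inv arrays lay above all others and SC replicate 1 lay lowest. Its log2 difference was 0.25 ± 0.21 (SE) in N-inv against PBS and 0.36 ± 0.21 in N-inv against SC, the second running from 0.09 to 0.63 with 1 array left out. The sign of that second difference was fixed, since the arrays did not overlap. Grik2, a core channel subunit, measured 391.4 and 565.0 in the N-inv arrays, 487.9 and 556.1 in the SC arrays, against 469.0 and 393.7 in the PBS arrays, and both SC arrays lay above both PBS arrays. Grik1 and Grik3, the other 2 core subunits measured, had log2 differences of 0.16 and -0.07 in N-inv against PBS. The delta receptor gene Grid1, whose product organises synapses, measured 1573 and 1828 in the N-inv arrays, 1512 and 2086 in the SC arrays, against 1533 and 1618 in the PBS arrays.

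The metabotropic genes showed small differences. Grm5, which couples to calcium release, measured 3298 and 3333 in the N-inv arrays, 3142 and 3433 in the SC arrays, against 2974 and 3357 in the PBS arrays, and its log2 difference of 0.07 in N-inv against PBS had a 95% interval between -0.31 and 0.45. Grm3, a receptor of glia and of nerve terminals that lowers cyclic AMP, measured 3048 and 3063 in the N-inv arrays, 2883 and 2319 in the SC arrays, against 2765 and 2745 in the PBS arrays. Both N-inv arrays of Grm3 lay above both SC and both PBS arrays, by 0.15 ± 0.17 (SE) over PBS and 0.24 ± 0.17 over SC on the log2 scale. Grm4, a receptor of nerve terminals, measured 1177 and 1148 in the N-inv arrays, 1094 and 1193 in the SC arrays, against 1235 and 1318 in the PBS arrays, and both N-inv and both SC arrays lay below PBS. Grm8, of the same class, measured 225.4 and 214.5 in the N-inv arrays, 207.4 and 403.4 in the SC arrays, against 242.1 and 307.3 in the PBS arrays. Both N-inv arrays of Grm8 lay below both PBS arrays, with a log2 difference of -0.28 ± 0.30 (SE), and its SC arrays lay on both sides of PBS. Grm7, the third of that class, had a log2 difference of 0.10 in N-inv against PBS by its brightest probe set. A dimmer one measured 375.6 and 303.3 in the N-inv arrays, 190.4 and 239.5 in the SC arrays, against 260.9 and 211.2 in the PBS arrays, with both N-inv arrays highest. Its log2 difference was 0.48 in N-inv against PBS and 0.60 in N-inv against SC (unadjusted p = 0.0498 and 0.0211, adjusted p = 1 and 0.483 in limma). The dimmest measured 181.9 and 237.4 in the N-inv arrays, 267.0 and 147.2 in the SC arrays, against 144.4 and 104.4 in the PBS arrays. Its log2 difference was 0.65 in N-inv against PBS. In N-inv against SC it was 0.06, with SC replicate 1 the highest array, and the brightest probe set gave -0.07 there.

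Grm2, a close relative of Grm3, was below the filter and was not tested. It measured 152.3 and 145.1 in the N-inv arrays, 311.2 and 217.0 in the SC arrays, against 53.2 and 87.2 in the PBS arrays. It is named here after its values were seen, and no order is read from them, as for the GABA and glycine receptor genes below the filter. The filter uses the mean of the log2 values, and its cutoff corresponds to an intensity of 147.7.

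**Figure D2:**
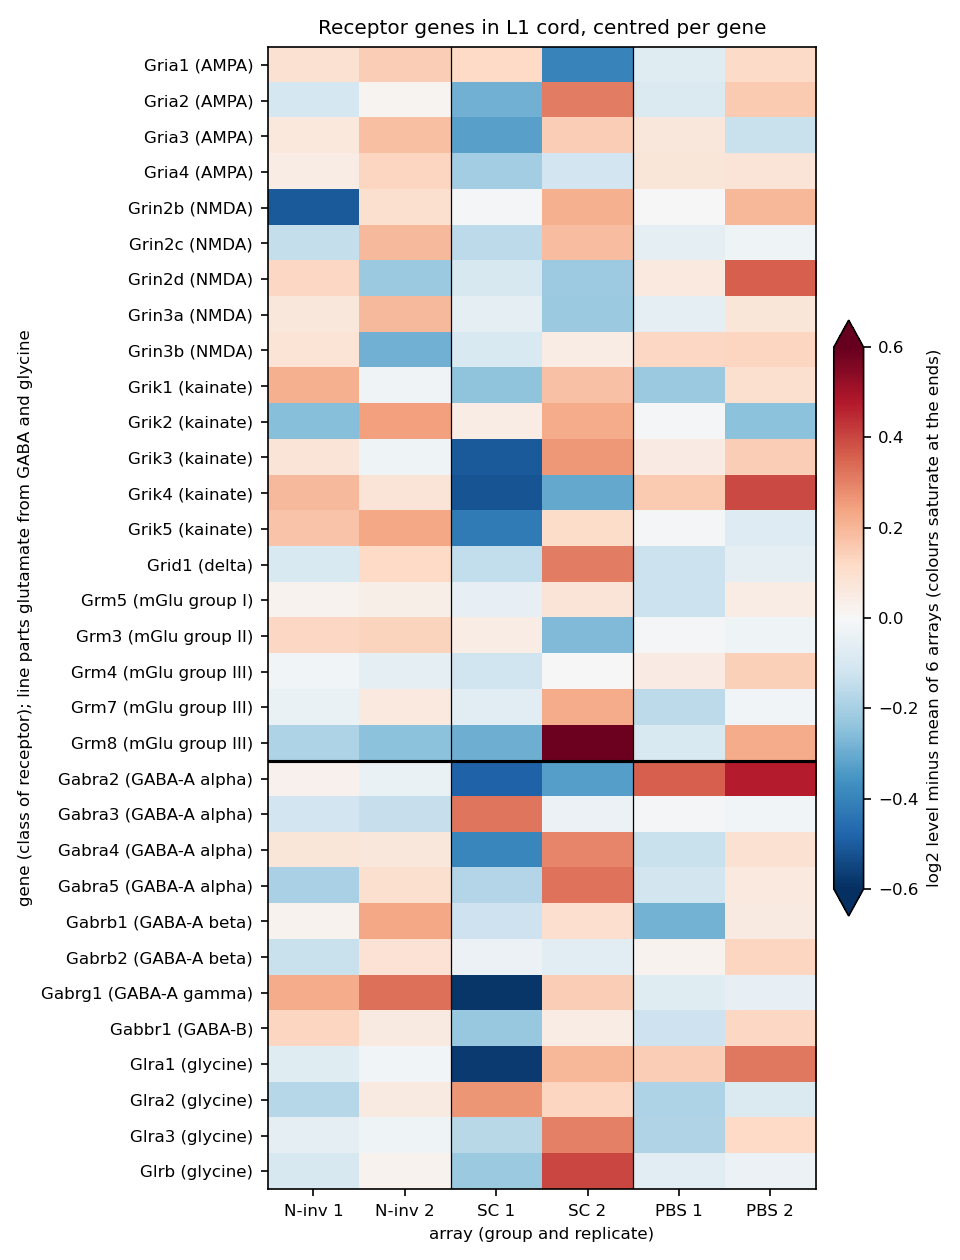
Colour gives the log2 level of each tested receptor gene (rows, with its class) in each of the 6 arrays (columns), minus the mean of the gene over the 6 arrays. Gabra2 and Grik4 are below their mean in both SC arrays. The median of replicate 2 minus replicate 1 is larger in SC than in N-inv or PBS.

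Gabra2, the alpha2 subunit of GABA-A receptors, which in mice is known to carry pain-relieving actions of benzodiazepines in the dorsal horn, had, by its brightest probe set, the largest difference among the 32 tested receptor genes in SC against PBS. It measured 2891 and 2761 in N-inv, 2026 and 2257 in SC, against 3646 and 3946 in PBS. The groups did not overlap: both SC arrays were lowest, both N-inv arrays lay between, and both PBS arrays were highest. Means were 2826 ± 92.3 in N-inv, 2141 ± 163.4 in SC, against 3796 ± 212.2 in PBS (SD, n = 2 each).

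The log2 difference of Gabra2 was -0.42 ± 0.16 (SE) in N-inv against PBS, 0.40 ± 0.16 in N-inv against SC and -0.82 ± 0.16 in SC against PBS. The unadjusted p was 0.0339, 0.0421 and 0.00148 in that order. In limma the adjusted p was 1, 0.544 and 0.507, so none was called. Each pair of these comparisons shares a group of arrays. The other 3 tested probe sets of the gene did not all follow. The next in brightness measured 1993 and 1930 in the N-inv arrays, 1450 and 1735 in the SC arrays, against 1456 and 2542 in the PBS arrays, with PBS replicate 1 between the 2 SC arrays. A dimmer one measured 1069 and 1167 in the N-inv arrays, 858.3 and 910.6 in the SC arrays, against 1115 and 1191 in the PBS arrays, with both SC arrays lowest and N-inv close to PBS. The dimmest, of a type that Affymetrix marks as open to binding by other transcripts, measured 74.7 and 102.5 in the N-inv arrays, 273.4 and 132.5 in the SC arrays, against 232.8 and 195.7 in the PBS arrays, with N-inv lowest. With the mean over the 4 tested probe sets the log2 difference of SC against PBS was -0.40, and that of N-inv against SC was 0.02.

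Oligodendrocyte markers are given beside Gabra2 and Grik4, first for the comparisons with SC. The median of 7 such markers was 0.34 in N-inv against SC, with 5 higher and 2 lower. It was -0.41 in SC against PBS, with 2 higher and 5 lower. At an unadjusted p under 0.05 in limma, 3 were higher in the first comparison and 3 lower in the second. Over all tested genes 8.2% and 6.73% passed that threshold in either direction, and none of the markers passed the adjusted one in limma. Their summed intensity was 205490 and 203366 in N-inv, 190590 and 194580 in SC, against 189436 and 201124 in PBS, so the sums of SC and PBS overlapped. In N-inv against PBS the median of the 7 markers was 0.03, where Gabra2 had -0.42 and Grik4 -0.14. The 6 markers of oligodendrocyte precursors had medians of 0.08 in N-inv against PBS, 0.20 in N-inv against SC and -0.11 in SC against PBS. The part of oligodendrocytes in the levels of Gabra2 and Grik4 was not tested.

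Gabra2 and Grik4 were the 2 genes whose representing probe set had an unadjusted p under 0.05 in more than 1 comparison, and their promoters are shown for that reason, from 250 bases before to 50 after the transcript start. They are RefSeq sequences of build GRCm38.p6, 5′ to 3′, at chr5:71095800-71096099 on the minus strand for Gabra2 and chr9:42944322-42944621 on the minus strand for Grik4. Capitals mark matches to the GC box GGGCGG or the CCAAT box CCAAT on either strand.
Gabra2: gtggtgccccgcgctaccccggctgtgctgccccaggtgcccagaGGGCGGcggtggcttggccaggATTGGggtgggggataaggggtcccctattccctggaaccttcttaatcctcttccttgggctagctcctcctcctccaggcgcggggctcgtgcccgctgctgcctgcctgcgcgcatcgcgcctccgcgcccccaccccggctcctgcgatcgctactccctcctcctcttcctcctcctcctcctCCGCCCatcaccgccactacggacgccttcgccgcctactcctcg
Grik4: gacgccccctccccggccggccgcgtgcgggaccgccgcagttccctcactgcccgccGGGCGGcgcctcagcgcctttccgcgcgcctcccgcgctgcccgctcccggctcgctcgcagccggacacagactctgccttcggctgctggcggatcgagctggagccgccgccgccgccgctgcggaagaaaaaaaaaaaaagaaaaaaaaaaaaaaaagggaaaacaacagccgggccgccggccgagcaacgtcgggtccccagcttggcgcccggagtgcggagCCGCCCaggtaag
Each promoter held 2 GC boxes, a motif found in 35.7% of 32851 promoter windows, and Gabra2 held 1 CCAAT box, found in 37.4%. The TATA box TATAAA and the cyclic AMP response element TGACGTCA, found in 13.6% and 1.79% of windows, were in neither window. The Gabra2 window held 25 CG dinucleotides and the Grik4 window 42, where the median of all windows was 7 and the upper quartile 20. These matches describe the letters and are not evidence of binding.

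**Figure D3:**
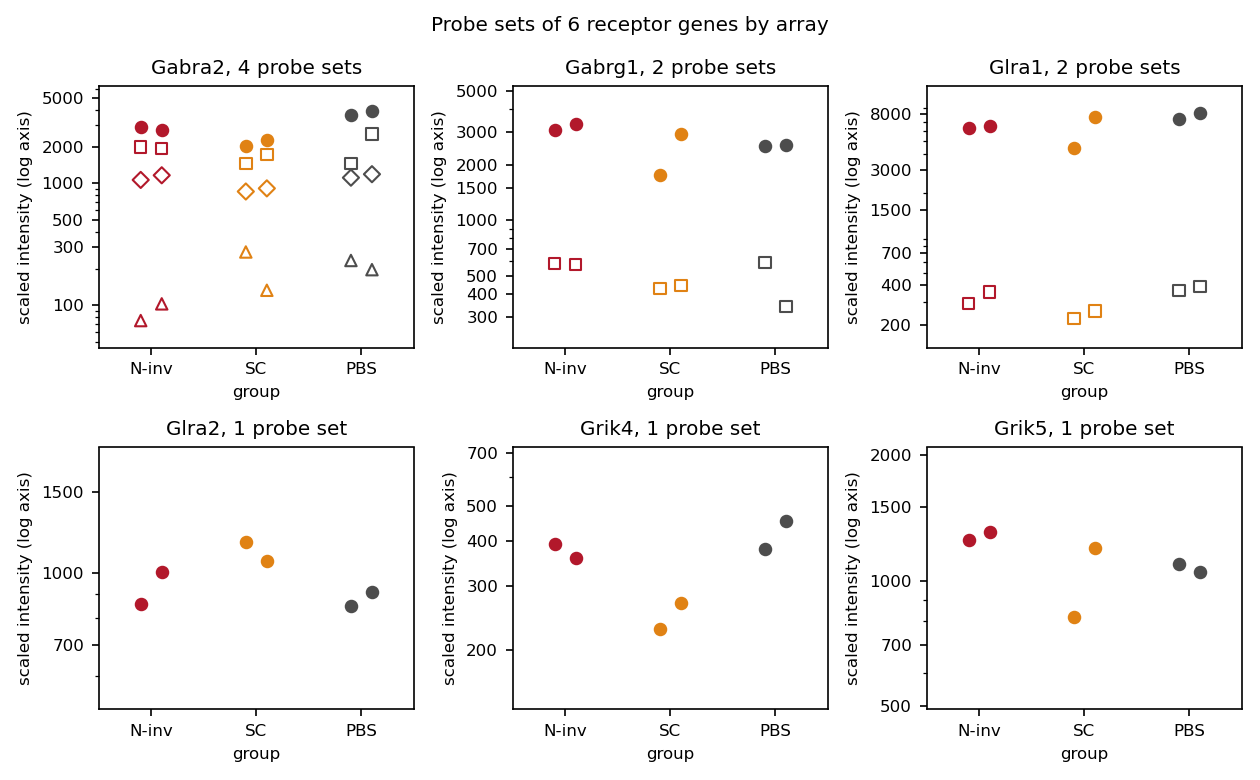
Scaled intensity (log axis) of every tested probe set of Gabra2, Gabrg1, Glra1, Glra2, Grik4 and Grik5 in the 2 arrays of N-inv, SC and PBS. Filled symbols are the brightest probe set of the gene, which represents it, and open symbols are its other tested probe sets. For Gabra2 the filled points order SC below N-inv below PBS, and the open ones do not all do so.

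Gabra3, another alpha subunit, measured 1385 and 1363 in the N-inv arrays, 1883 and 1467 in the SC arrays, against 1495 and 1485 in the PBS arrays, with both N-inv arrays below both SC and both PBS arrays by log2 differences of -0.27 and -0.11. With 1 array left out the difference from SC ran from -0.45 to -0.09, its sign being fixed by arrays that did not overlap. A dimmer probe set gave 0.08 with arrays that overlapped. Gabra4 measured 1200 and 1193 in the N-inv arrays, 861.1 and 1403 in the SC arrays, against 1034 and 1217 in the PBS arrays. Gabra5, a subunit of receptors outside synapses, measured 1931 and 2360 in the N-inv arrays, 1953 and 2778 in the SC arrays, against 2042 and 2303 in the PBS arrays. In Gabra4 and Gabra5 SC replicate 2 was the highest array, and the N-inv and PBS arrays overlapped. Gabra6, known from cerebellar granule cells, had 2 probe sets, both below the filter.

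Of the beta subunits, which form part of the GABA binding site, Gabrb1 measured 6525 and 7567 in the N-inv arrays, 5899 and 6903 in the SC arrays, against 5277 and 6688 in the PBS arrays. Its log2 difference in N-inv against PBS was 0.24 ± 0.19 (SE), and the arrays overlapped. Gabrb2 measured 2067 and 2418 in the N-inv arrays, 2214 and 2174 in the SC arrays, against 2304 and 2483 in the PBS arrays. Its 95% interval in N-inv against PBS lay between -0.49 and 0.29, and both SC arrays lay below both PBS arrays, with a log2 difference of -0.12. Of its 5 tested probe sets 3 were higher in SC, by up to 0.22, and their mean gave 0.02.

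Gabrg1, a gamma subunit known from glia as well as neurons, was higher in both N-inv arrays than in the other 4. It measured 3095 and 3343 in the N-inv arrays, 1757 and 2942 in the SC arrays, against 2522 and 2559 in the PBS arrays. Its log2 difference was 0.34 ± 0.25 (SE) in N-inv against PBS and 0.50 ± 0.25 in N-inv against SC, with adjusted p of 1 and 0.621 in limma. Without SC replicate 1 the difference from SC was 0.13, and without SC replicate 2 it was 0.86. A second probe set measured 581.2 and 573.7 in the N-inv arrays, 427.2 and 444.0 in the SC arrays, against 591.3 and 339.9 in the PBS arrays, and there PBS replicate 1 was the highest array. Beside this gene, the summed intensity of 9 astrocyte markers was 218561 and 221405 in N-inv, 165538 and 210383 in SC, against 180810 and 192162 in PBS, with both N-inv arrays highest. Of these markers 7 were higher and 2 lower in N-inv against PBS, with a median log2 difference of 0.11. The part of astrocytes in the level of Gabrg1 was not tested.

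Gabbr1, which binds GABA in the GABA-B receptor, measured 14952 and 14206 in the N-inv arrays, 11677 and 14138 in the SC arrays, against 12559 and 14917 in the PBS arrays, and the difference on the log2 scale was 0.09 ± 0.18 (SE) in N-inv against PBS. The 9 GABA-A genes and glycine receptor genes without a tested probe set were Gabra6, Gabrd, Gabre, Gabrg3, Gabrp, Gabrq, Gabrr1, Gabrr2 and Glra4. Their values lay between 3.0 and 269.3, with Gabrg3 between 5.1 and 269.3 over 4 probe sets and Glra4 between 3.0 and 127.9, and no order is read from them.

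Glycine receptor genes had log2 differences between -0.28 and 0.08 in N-inv against PBS. Glra1, the main alpha subunit of the adult cord, measured 6267 and 6516 in the N-inv arrays, 4429 and 7588 in the SC arrays, against 7323 and 8221 in the PBS arrays. Both N-inv arrays lay below both PBS arrays, with a log2 difference of -0.28 ± 0.26 (SE), and the SC arrays lay on both sides of N-inv. A second, dimmer probe set measured 291.2 and 355.6 in the N-inv arrays, 223.9 and 255.7 in the SC arrays, against 367.0 and 392.9 in the PBS arrays, with both SC arrays lowest and a log2 difference of -0.61 in SC against PBS (unadjusted p = 0.0104, adjusted p = 0.521 in limma).

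Glra2, the alpha subunit that prevails before birth, lay higher in SC. It measured 857.4 and 1005 in the N-inv arrays, 1167 and 1061 in the SC arrays, against 848.1 and 911.4 in the PBS arrays, and both SC arrays were the highest of the 6, by 0.33 ± 0.17 (SE) over PBS on the log2 scale with an adjusted p of 0.697 in limma. Glra3, a subunit of the superficial dorsal horn, measured 1495 and 1527 in the N-inv arrays, 1382 and 1922 in the SC arrays, against 1367 and 1690 in the PBS arrays. Glrb, the beta subunit that anchors the receptor to gephyrin, measured 13680 and 14832 in the N-inv arrays, 12512 and 19298 in the SC arrays, against 13918 and 14233 in the PBS arrays. In Glra3 and Glrb SC replicate 2 was the highest array and N-inv and PBS differed by -0.01 and 0.02 on the log2 scale.

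The excitatory and the inhibitory genes were then set side by side. In N-inv against PBS the median log2 difference was 0.07 over the 20 glutamate receptor genes, 12 of them higher and 8 lower, and 0.00 over the 12 GABA and glycine receptor genes, 6 higher and 6 lower. Over all 12614 tested genes it was 0.04, and 59.9% of them were higher, beside 60% and 50% in the 2 classes. In N-inv against SC the medians were 0.07 and 0.07, with 0.06 over all genes, of which 60.5% were higher. In SC against PBS they were -0.07 and 0.04, with -0.02 over all genes. The signs turned on single arrays. In N-inv against PBS the glutamate median ran from -0.03 to 0.07 and the GABA and glycine median from -0.04 to 0.10 with each array left out in turn. Leaving out SC replicate 1 gave SC against PBS medians of 0.14 and 0.21, while leaving out SC replicate 2 gave -0.20 and -0.15. In N-inv against SC the medians were -0.07 and -0.14 when SC replicate 1 was left out. With quantile normalization N-inv against SC gave 10 glutamate receptor genes higher and 10 lower, in place of 13 and 7. Restricted to the 15 channel-forming glutamate receptor genes, the medians were 0.07, 0.13 and -0.11 in the order of comparisons above.

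The balance was also read per array, as the mean log2 level of the glutamate receptor genes minus that of the GABA and glycine receptor genes, each gene centred on its mean of 6 arrays. It was 0.03 and -0.01 in N-inv, 0.03 and -0.06 in SC, against 0.03 and -0.02 in PBS. The groups overlapped. Taken alone, the glutamate receptor genes were at 0.00 and 0.05 in N-inv, -0.17 and 0.07 in SC, against -0.02 and 0.08 in PBS. The GABA and glycine receptor genes were at -0.03 and 0.06 in N-inv, -0.20 and 0.13 in SC, against -0.05 and 0.10 in PBS. Both classes were lowest in SC replicate 1, as were all tested genes, at -0.11. The summed intensity of 15 markers of all neurons was also lowest in SC replicate 1 and highest in SC replicate 2, at 237767 and 248300 in N-inv, 215094 and 262168 in SC, against 224018 and 231550 in PBS. The part of neuron content in the receptor levels was not tested.

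**Figure D4:**
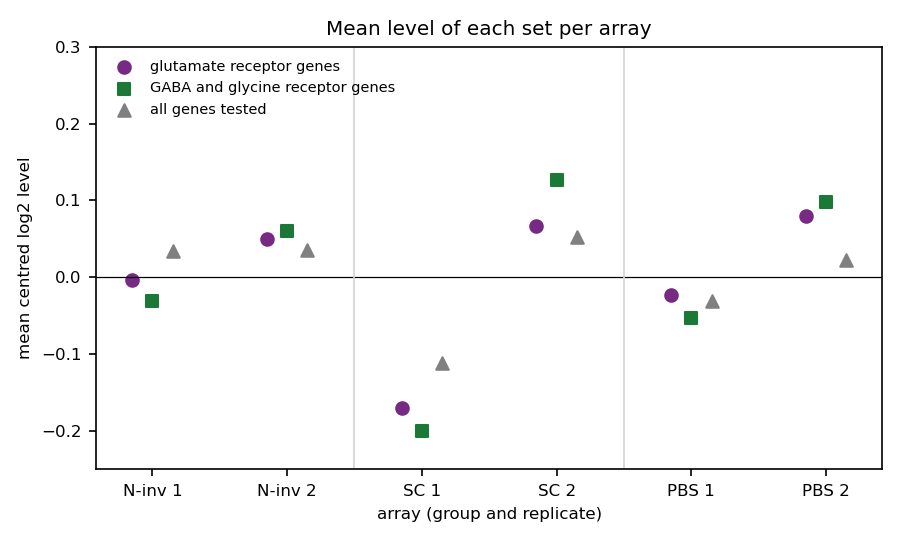
Mean centred log2 level (y axis) of the glutamate receptor genes, the GABA and glycine receptor genes and all tested genes in each of the 6 arrays (x axis, by group and replicate). Both receptor classes are lowest in SC replicate 1, and the ranges of the groups overlap.

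Proteins that hold or modify these receptors were read from a list of scaffolds and auxiliary subunits. On the glutamate side 34 of 38 listed genes were tested, with 0 passing the adjusted threshold in limma in each comparison. At an unadjusted p under 0.05, 1 was higher and 1 lower in N-inv against PBS, 2 were higher and 0 lower in N-inv against SC, and 1 was higher and 4 lower in SC against PBS. Over all tested genes the shares in either direction were 3.35%, 8.2% and 6.73%. The median log2 difference was -0.01, 0.12 and -0.07 in that order. Grid2ip, which is also a member, had intensities of 241.4 and 170.7 in the N-inv arrays, against 254.4 and 264.2 in the PBS arrays, with both N-inv arrays below both PBS arrays, and its SC arrays lay on both sides of PBS. Nptx2, a secreted pentraxin that clusters AMPA receptors, measured 223.8 and 204.6 in the N-inv arrays, 185.9 and 173.8 in the SC arrays, against 113.0 and 138.4 in the PBS arrays, with both N-inv arrays highest. Cacng4, an AMPA receptor auxiliary subunit, measured 909.8 and 743.0 in the N-inv arrays, 978.7 and 832.7 in the SC arrays, against 1106 and 1958 in the PBS arrays, with both PBS arrays highest. Cnih2, which escorts AMPA receptors to the surface, measured 752.8 and 724.3 in the N-inv arrays, 385.9 and 580.1 in the SC arrays, against 608.3 and 636.6 in the PBS arrays, with both N-inv arrays highest and both SC arrays lowest.

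On the GABA and glycine side 16 of 20 listed genes were tested and 0 passed the adjusted threshold in limma in each comparison. At an unadjusted p under 0.05, 1 was higher in N-inv against PBS, 1 higher in N-inv against SC and 1 lower in SC against PBS, beside the 3.35%, 8.2% and 6.73% over all tested genes. The medians were 0.06, 0.12 and -0.04. Lhfpl4, a partner of GABA-A receptors at inhibitory synapses, measured 5012 and 4509 in the N-inv arrays, 2626 and 3237 in the SC arrays, against 3207 and 3333 in the PBS arrays. Both N-inv arrays lay above the other 4, with log2 differences of 0.54 ± 0.18 (SE) against PBS and 0.70 ± 0.18 against SC, and adjusted p of 1 and 0.445 in limma. Gphn, which encodes the gephyrin scaffold, measured 4129 and 4584 in the N-inv arrays, 3792 and 4764 in the SC arrays, against 4139 and 3970 in the PBS arrays. Slc12a5, the potassium and chloride exporter that keeps these channels inhibitory, measured 35948 and 40458 in the N-inv arrays, 35477 and 44107 in the SC arrays, against 34257 and 39074 in the PBS arrays, with a log2 difference of 0.06 in N-inv against PBS.

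Cell type markers were measured beside the receptors. Of 9 microglia markers all were higher in both N-inv arrays than in both PBS arrays, where 25.2% of all tested genes were, with a median log2 difference of 0.76 and summed intensities of 47131 and 42216 in N-inv, 25113 and 34044 in SC, against 28920 and 29348 in PBS. The 15 neuron markers all passed the filter, with medians of 0.11 in N-inv against PBS, 0.03 in N-inv against SC and 0.05 in SC against PBS. The 12 dorsal horn markers had 0.10, 0.03 and 0.10 in that order. Of 5 ependymal markers 3 were tested, with 1 higher and 2 lower in N-inv against PBS and a median of -0.51. Their median was 0.15 in N-inv against SC and -0.37 in SC against PBS. These markers were dim, with summed intensities of 692.7 and 559.0 in N-inv, 632.5 and 457.3 in SC, against 820.0 and 788.6 in PBS. At an unadjusted p under 0.05 in limma, 2 of them were lower in N-inv against PBS and 1 in SC against PBS. Over all tested genes 3.35% and 6.73% passed that threshold in either direction. The 5 measured sensory neuron markers of dorsal root ganglia, among them Scn10a and Trpv1, were all below the filter. The part of microglia in the receptor levels was not tested.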

How the data were processed

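Per the labels' protocols, TRIzol was used to isolate total RNA, of which 100 ng entered the two-cycle Affymetrix labelling. The authors deposited linear probe set intensities, 1 column per array, and the 2% trimmed mean of each column was 1000, so they had been scaled. For probe summarising, the method was not given in the sources used here.

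After 64 control probe sets were left out, each array was scaled to the median of all values, 256.2, and log2(intensity + 25.6) was taken. Probe sets with a mean log2 value above the 40th percentile, which corresponds to an intensity of 147.7, were tested: 27022, for 12614 named genes. A gene is represented by its brightest tested probe set. Two-sided tests came from limma (version 3.58.1, R 4.3.3), in 1 model over the 6 arrays with a mean per group (3 residual and 3.72 prior degrees of freedom), and Benjamini-Hochberg adjustment over all 27022. Array number limits the precision, and with 2 arrays against 2 the smallest p of an exact permutation test is 0.333. Members and lists were chosen with earlier results of these data known. Genes were named by rule: a fixed set of main subunits, and up to 10 per direction and comparison whose arrays did not overlap. Outside this rule Grik1, Grik3, Grid1, Grm2, Grm7 and further genes below the filter were also named. From the scaffold and marker lists up to 4 genes per comparison could be named, by smallest p, and Gphn and Slc12a5 were named outside that rule. Promoter sequences came from RefSeq, build GRCm38.p6. The code was tested on simulated data.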

Additional observations from a re-analysis of the deposited data

How the results depend on the processing

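Under 16 alternatives (2 scalings, 2 pseudocounts, 2 filters, an intensity trend, only the groups compared, the replicate block, the mean over probe sets, and each array left out) 0 member probe sets passed the adjusted threshold in any of the 3 comparisons. The smallest adjusted p in limma of a gene named by rule was 0.18. Over all probe sets 1 passed in N-inv against PBS and 2 in N-inv against SC with the intensity trend, and 1 in N-inv against PBS with only the groups compared. With an array left out the counts ran from 0 to 1 in N-inv against PBS, 0 to 1 in N-inv against SC and 0 to 9 in SC against PBS, the 9 without SC replicate 1. With no filter, which adds the dim GABA and glycine genes, the glutamate minus GABA and glycine difference was -0.18, 0.11 and -0.28 for N-inv against PBS, for N-inv against SC and for SC against PBS, in place of 0.00, 0.02 and -0.02. With an array left out this difference ran from -0.076 to 0.049, from -0.020 to 0.069 and from -0.076 to 0.057 in that order. The glutamate receptor median then ran from -0.027 to 0.068 in N-inv against PBS, from -0.066 to 0.13 in N-inv against SC and from -0.20 to 0.14 in SC against PBS, and the GABA and glycine median from -0.038 to 0.095, from -0.14 to 0.19 and from -0.15 to 0.21. The cause was not tested. The count of genes with an interval inside 2-fold, a check chosen after seeing the data, ran from 26 to 32, from 25 to 31 and from 24 to 31 over the alternatives run for it, which leave out the mean over probe sets and tested 30 to 43 genes.

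The replicate numbers are shared between groups, but the deviations of same-numbered arrays correlated by 0.01, -0.03 and 0.04 between pairs of groups, so the numbers are not read as pairs. With the replicate block 0 member probe sets were called, and the medians were 0.07 and 0.00 in N-inv against PBS. No other call changed.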

Other observations

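GABA-A subunit genes lie in clusters, and in the RefSeq gene order of assembly GRCm38.p6 Gabrg1 and Gabra2 are neighbours on chromosome 5, as are Gabra4 and Gabrb1. By their brightest probe sets in N-inv against PBS Gabrg1 had a log2 difference of 0.34 and Gabra2 of -0.42. Both N-inv arrays lay above both PBS arrays in the first and below in the second. In SC against PBS these probe sets had -0.16 and -0.82. Other tested probe sets of Gabra2 gave 0.03, -0.04 and -1.08 in N-inv against PBS, and arrays overlapped in all but the last. The other Gabrg1 probe set gave 0.34, with arrays that overlapped. Gabra4 and Gabrb1 had 0.09 and 0.24 in N-inv against PBS. None of these differences passed the adjusted threshold in limma, and the difference between neighbours was not tested.

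Of 17 receptor genes with over 1 tested probe set, 11 had all of them on the same side of 0 in N-inv against PBS, 11 in N-inv against SC and 9 in SC against PBS.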
